A study of Danio rerio with 10 samples.

Results

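The cytosolic ribosomal protein genes were examined in testes of adult zebrafish that had met TCDD early in life. TCDD, the most studied of the dioxins, is a pollutant that acts through the aryl hydrocarbon receptor, a ligand-activated transcription factor. The members were all genes whose array probe carried a single symbol of the rpl or rps series, together with the stalk proteins rplp0, rplp1, rplp2 and rplp2l and with rpsa, and each gene was represented by its brightest probe, judged by the mean of the 10 arrays. This gave 69 genes among 19260 genes with a single symbol, 39 of the large subunit and 30 of the small subunit. No probe with a single symbol was found for rplp0 or rplp2l, so neither is among the 69. Another 6 genes of the same naming (rpl4, rpl5a, rpl12, rpl22, rpl32 and rps23) appeared only on probes that carry several symbols and were not analysed here.

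The TCDD group held 5 testis samples from wild-type males of the AB strain that were placed in water with TCDD at 50 pg/ml for 1 h at 3 weeks and again at 7 weeks after fertilization. The DMSO group held 5 samples from wild-type males of that strain given the solvent on the same schedule. All fish were 1 year old when testes were profiled on Affymetrix whole-transcript arrays, with 1 array per sample, so both groups share strain, sex, age and solvent. The labels call the samples biological replicates and do not say whether each came from 1 fish or a pool, from which tank or clutch it came, or in which batch it was run. In bulk tissue such as this, fewer cells of a type and less RNA per cell cannot be told apart.

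A ribosome is built of ribosomal RNA and a large set of proteins, most of them present once per particle. The small subunit reads the messenger RNA, the large subunit joins the amino acids, and the stalk of acidic proteins on the large subunit recruits elongation factors. In vertebrates the messenger RNAs of these proteins begin with a run of pyrimidines, the 5′ terminal oligopyrimidine or TOP element, through which mTORC1 and the RNA-binding protein LARP1 control their translation together. Some members have further roles known from mammals: rpl5 and rpl11 bind and restrain Mdm2, the ubiquitin ligase of p53, and rps27a is made as a fusion with ubiquitin.

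The labelled tissue was checked with marker lists for testis cells and for neighbouring tissues. The median log2 value of an array was 6.71 to 6.87, and pairs of arrays correlated at 0.90 to 0.98, with DMSO 1 the least like the others (mean correlation 0.918). Meiosis genes averaged 9.77 to 10.77 in TCDD arrays and 7.98 to 10.78 in DMSO arrays, and the Leydig cell hormone gene insl3 was at 11.13 or higher in every array except DMSO 1, where it was 7.09. The 21 measured markers of intestine and exocrine pancreas averaged 7.64 to 11.37 in TCDD arrays and 7.69 to 12.20 in DMSO arrays. Their highest averages were 12.20 in DMSO 1 and 11.37 in TCDD 2, and all 21 lay above their own mean in both of these arrays. Most marker lists had more genes with a higher mean in TCDD than in DMSO. The count was 7 of 7 for Leydig cells, 8 of 8 for Sertoli cells and 18 of 18 for liver. It was 19 of 21 for intestine and pancreas, 13 of 15 for oocytes and 9 of 13 for spermatogonia. Leukocytes had 8 of 11 and erythrocytes 4 of 7. Over all genes, 54.6% had a higher mean in TCDD. For meiosis and for spermatids and sperm the count was 11 of 12 each. DMSO 1 had the lowest averages of both lists, at 7.98 and 7.31. Without it, DMSO averages for meiosis ran from 10.12 to 10.78, against 9.77 to 10.77 in TCDD. Those for spermatids and sperm ran from 9.56 to 9.96, against 9.27 to 9.87. Both ends of the TCDD range were thus lower, and counts without DMSO 1 were not taken. Median differences were 0.65, 0.54, 1.03 and 0.57 for Leydig, Sertoli, liver, and intestine and pancreas markers, and the list averages overlapped between the groups. Leydig averages were 9.25 to 9.91 in TCDD against 7.87 to 9.66 in DMSO. Sertoli averages were 9.88 to 11.05 against 9.43 to 10.37, and liver averages 7.68 to 10.64 against 7.02 to 7.88. The liver average of 10.64 was that of TCDD 5. DMSO 1 had the lowest Leydig and Sertoli averages, at 7.87 and 9.43. Without it, DMSO averages ran from 9.16 to 9.66 for Leydig cells and from 9.95 to 10.37 for Sertoli cells. Median differences of these lists without DMSO 1 were not taken. Of the muscle markers 2 of 19 had higher means in TCDD, with a median of -0.42, at averages of 6.82 to 7.06 in TCDD against 6.96 to 7.78 in DMSO. The part of these markers in the differences given here was not tested. No marker was listed at 0, since the smallest value of the whole table was 1.25.

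The ribosomal protein genes were bright. All 69 lay above the median probe of the array, and 15688 of all 19260 genes lay at or above it. Among the brightest 10% of probes lay 44 members, and the share of all genes there was not taken. Values of different probes depend on probe sequence as well as on RNA, so members are compared with one another only through their deviations from their own mean. The standard deviation of a member over the 10 arrays had a median of 0.19, from 0.059 for rps2 to 0.44 for rps27l, against a median of 0.28 over all genes. It lay below that median of all genes for 60 of the 69 members. Other lists of translation genes had medians below it too, so this was not particular to the members. These were 0.19 for elongation and TOP genes, 0.22 for mitochondrial ribosomal proteins, 0.23 for initiation factors, 0.23 for ribosome biogenesis and 0.24 for regulators.

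No ribosomal protein gene passed the adjusted threshold between TCDD and DMSO testes. Of the 69 members, 0 passed a limma adjusted p of 0.05, where 0% of all genes did. At an unadjusted p under 0.05 there was 1 member, rpl38, which was lower, beside 2.48% of all genes in either direction, 1.68% lower and 0.8% higher. Differences, as TCDD minus DMSO on the log2 scale, ran from -0.40 to 0.20, and 46 of 69 were smaller than 0.1 in size. There were 28 members above 0 and 41 below, with a median of -0.057. Over all genes the median was 0.018, and 54.6% were above 0. When DMSO 1 was left out the median over members was 0.026, with 45 members above 0. The member mean was 10.22 ± 0.07 in TCDD arrays and 10.26 ± 0.17 in DMSO arrays (SD, n = 5 each), and 10.19 ± 0.06 in DMSO arrays without DMSO 1 (n = 4).

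The 95% intervals of these differences were narrow for most members. For 63 of 69 the whole interval lay within a 1.5-fold change in either direction (0.585 on the log2 scale), as it did for 60.2% of all genes. The other 6 were rpl38, rps20 and rplp2, whose intervals reached below that limit, and rpl37, rps13 and rps27l, whose intervals reached above it. By subunit, 19 of 39 large-subunit genes and 9 of 30 small-subunit genes were above 0, beside 54.6% of all genes. Their medians were -0.026 and -0.066. In DMSO 1 the large-subunit and small-subunit genes averaged 0.28 and 0.34 above their own means. Subunit counts without that array were not taken.

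**Figure D1:**
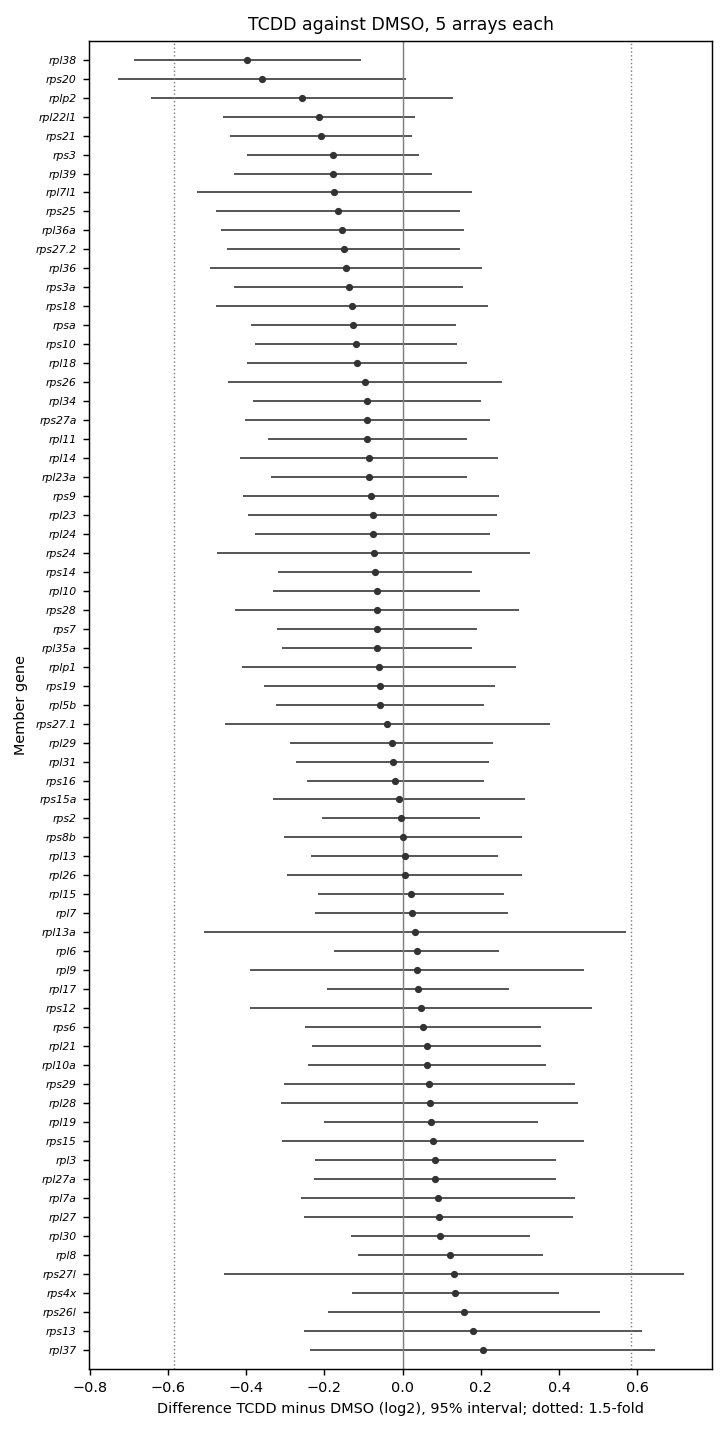
Difference between TCDD and DMSO testes for each of the 69 ribosomal protein genes (log2, horizontal axis) with its 95% interval from limma, 5 arrays per group. Dotted lines mark 1.5-fold in either direction; only the interval of rpl38 at the top, at -0.40, excludes 0.

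The member with the smallest p was rpl38, which encodes a small protein of the large subunit. In the mouse, loss of Rpl38 alters translation of Hox messenger RNAs. Its value was 9.49, 9.85, 9.32, 9.32 and 9.43 in TCDD 1 to 5, against 10.10, 9.79, 9.82, 9.73 and 9.95 in DMSO 1 to 5. In 4 of 5 TCDD arrays rpl38 was below every DMSO array, and TCDD 2 lay among the DMSO values. Mean rpl38 was 9.48 ± 0.22 in TCDD testes and 9.88 ± 0.15 in DMSO testes (SD, n = 5 each). This was 1.32-fold lower, or -0.40 on the log2 scale (95% CI -0.69 to -0.11). The unadjusted limma p was 0.0119 and the adjusted p was 1.00. Over all alternatives the difference stayed between -0.49 and -0.34 and the unadjusted p between 0.002 and 0.0326, while the adjusted p was never below 0.630 (limma throughout).

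A further 3 members of the small subunit had low values in TCDD testes. rps20, a protein of the head of the small subunit, was at 10.93, 11.38, 11.20, 10.91 and 10.72 in TCDD 1 to 5, against 11.76, 11.33, 11.10, 11.20 and 11.55 in DMSO 1 to 5. The groups overlapped, with 3 of 5 TCDD arrays below every DMSO array, and the difference was -0.36 (95% CI -0.73 to 0.01). Its dimmer second probe differed by -0.22.

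rps21 and rps3 were the only members whose groups did not overlap, 2 of 69 and both lower in TCDD, where 0.395% of all genes were lower without overlap, 0.0987% higher and 0.493% either way. rps21, a small-subunit protein, was at 10.10, 10.11, 10.10, 10.00 and 9.99 in TCDD 1 to 5, against 10.52, 10.28, 10.11, 10.22 and 10.21 in DMSO 1 to 5. rps3, which sits at the entry of the messenger RNA channel, was at 12.00, 12.02, 12.06, 12.01 and 11.91 in TCDD 1 to 5, against 12.38, 12.20, 12.09, 12.06 and 12.17 in DMSO 1 to 5. In both genes the gap between the groups was narrow: the highest TCDD and lowest DMSO values were 10.108 and 10.111 for rps21, and 12.056 and 12.059 for rps3. The differences of -0.21 (95% CI -0.44 to 0.02) and -0.18 (95% CI -0.40 to 0.04) did not exclude 0. Leaving out DMSO 1 gave -0.15 and -0.13.

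**Figure D2:**
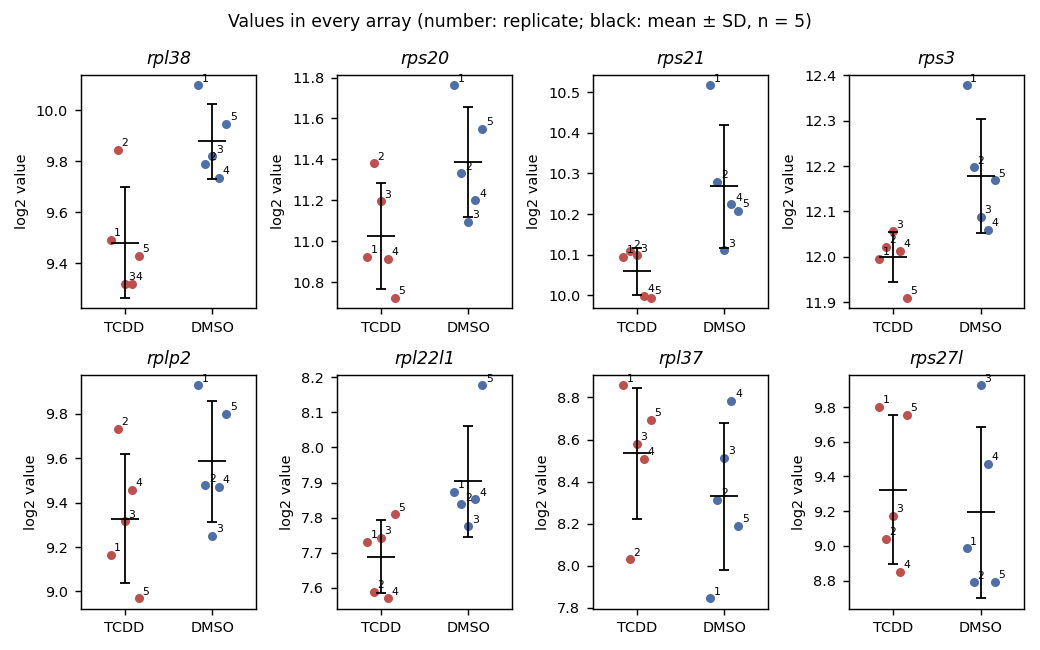
Log2 values of 8 ribosomal protein genes in every array, TCDD left and DMSO right, with the replicate number beside each point and the mean ± SD (n = 5) in black; each panel has its own axis, which does not start at 0. For rpl38, TCDD 2 at 9.85 lies among the DMSO values, and the other 4 TCDD arrays lie below them.

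The stalk proteins were represented by rplp1 and rplp2. rplp2 was at 9.17, 9.73, 9.32, 9.46 and 8.97 in TCDD 1 to 5, against 9.93, 9.48, 9.25, 9.47 and 9.80 in DMSO 1 to 5, a difference of -0.26 (95% CI -0.64 to 0.13) with overlapping groups. rplp1 differed by -0.060 (95% CI -0.41 to 0.29). The pair did not share one profile, since rplp1 had its highest values in DMSO 3, DMSO 1 and TCDD 1, at 10.83, 10.81 and 10.79, whereas rplp2 was among its lowest in DMSO 3 and TCDD 1.

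Several well-known members had differences whose intervals included 0. The 5S particle proteins rpl5b and rpl11 differed by -0.057 (95% CI -0.32 to 0.21) and -0.090 (95% CI -0.34 to 0.16). The dimmer second probe of rpl11 differed by 0.049. rps6, the substrate of the S6 kinases, differed by 0.052 (95% CI -0.25 to 0.35), and rpsa, also known as a laminin receptor, by -0.13 (95% CI -0.39 to 0.14). rps19 and rps14, whose human counterparts are mutated in Diamond-Blackfan anaemia and lost in the 5q- syndrome, differed by -0.058 (95% CI -0.35 to 0.24) and -0.070 (95% CI -0.32 to 0.18). The ubiquitin fusion gene rps27a differed by -0.090 (95% CI -0.40 to 0.22). rpl13a, which is often used as a reference gene in zebrafish, differed by 0.032 but with a wide interval (95% CI -0.51 to 0.57), because its values ran from 7.67 in TCDD 1 to 8.69 in TCDD 2 and from 7.75 in DMSO 4 to 8.72 in DMSO 1. The remaining always-listed genes were rpl3 at 0.084, rpl10a at 0.063 and rpl10 at -0.066, each with an interval that included 0.

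Ribosomal protein genes varied together across arrays, with values of the groups overlapping. The mean correlation between pairs of members over the 10 arrays was 0.40, against 0.036 between pairs of all genes. It was 0.52 for ribosome biogenesis genes, 0.32 for mitochondrial ribosomal proteins, 0.25 for initiation factors, 0.20 for elongation and TOP genes and 0.056 for regulators, so shared movement was not particular to the members. The points share their array, with its RNA mixture and its normalization. Averaged over members, the deviation from the gene's own mean was -0.024, 0.097, -0.097, -0.043 and -0.028 in TCDD 1 to 5, and 0.30, -0.13, 0.011, -0.043 and -0.044 in DMSO 1 to 5. DMSO 1 stood highest, TCDD 2 came next and DMSO 2 was lowest, and the groups overlapped. Large and small subunit genes gave nearly the same profile, at 0.28 and 0.34 in DMSO 1, 0.082 and 0.12 in TCDD 2, and -0.14 and -0.13 in DMSO 2.

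DMSO 1 held the highest value of 55 of the 69 members (79.7%), compared with 22.9% of all genes. The median member lay 0.36 above the mean of the other 9 arrays there, whereas the median of all genes lay 0.029 below. TCDD 2 was above the mean of the 8 arrays other than itself and DMSO 1 for 55 members, by a median of 0.15. The share of all genes above that mean was not taken. Against the mean of all 10 arrays, the median deviation in TCDD 2 was 0.11 over members and -0.098 over all genes. These are the arrays with the highest intestine and pancreas markers. They also had the highest leukocyte averages, at 8.59 in DMSO 1 and 8.72 in TCDD 2. The same arrays had the lowest averages for spermatogonia, meiosis, sperm, Sertoli cells and oocytes. DMSO 1 also had the lowest Leydig and erythrocyte averages. The part of these markers in the ribosomal protein profile was not tested. Without DMSO 1 the mean pairwise correlation of members was 0.17, and without both DMSO 1 and TCDD 2 it was 0.072, near the 0.051 of all genes over the same 8 arrays. Biogenesis genes, by comparison, were at 0.56 and 0.45, mitochondrial ribosomal proteins at 0.35 and 0.20, and initiation factors at 0.35 and 0.32.

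**Figure D3:**
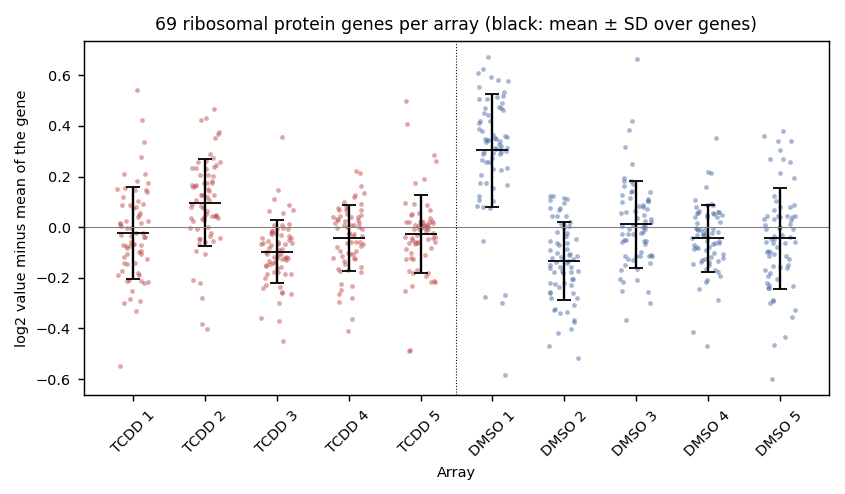
Deviation of each of the 69 ribosomal protein genes from its own mean over the 10 arrays (log2, points), with the mean ± SD over genes in black; TCDD arrays are left of the dotted line and DMSO arrays right. DMSO 1, with a mean of 0.30, stands above the other arrays, which lie between -0.13 and 0.097.

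The closest followers of the shared profile were rps18, rpl13, rps15, rps14 and rpl24, whose correlations with the mean of the other members over 10 arrays were 0.94, 0.93, 0.93, 0.92 and 0.90. rps18, a protein of the small-subunit head, was at 8.59, 8.80, 8.33, 8.50 and 8.62 in TCDD 1 to 5, against 9.21, 8.46, 8.52, 8.62 and 8.67 in DMSO 1 to 5. rps15 was at 11.29, 11.40, 11.04, 11.24 and 11.20 in TCDD 1 to 5, against 11.78, 10.77, 11.14, 11.07 and 11.01 in DMSO 1 to 5. Both were highest in DMSO 1 and second highest in TCDD 2. Over all members the median correlation was 0.70, and 27 members exceeded 0.8. Without DMSO 1 the median was 0.47.

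The smallest standard deviations over arrays were those of rps2, rpl6, rps16, rpl17 and rpl15. rps2, a protein of the small-subunit body, stayed within 13.11 to 13.25 in TCDD arrays and 13.12 to 13.30 in DMSO arrays. rpl6 stayed within 13.12 to 13.17 in TCDD arrays and 13.01 to 13.30 in DMSO arrays. Both were highest in DMSO 1, and their probes were brighter than 99.8% of all probes or more; the part of this brightness in their small spread was not tested. rps16, rpl17 and rpl15 had standard deviations of 0.10, 0.11 and 0.12 over the 10 arrays. Differences between TCDD and DMSO were -0.0040 for rps2, 0.036 for rpl6, -0.018 for rps16, 0.040 for rpl17 and 0.021 for rpl15.

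**Figure D4:**
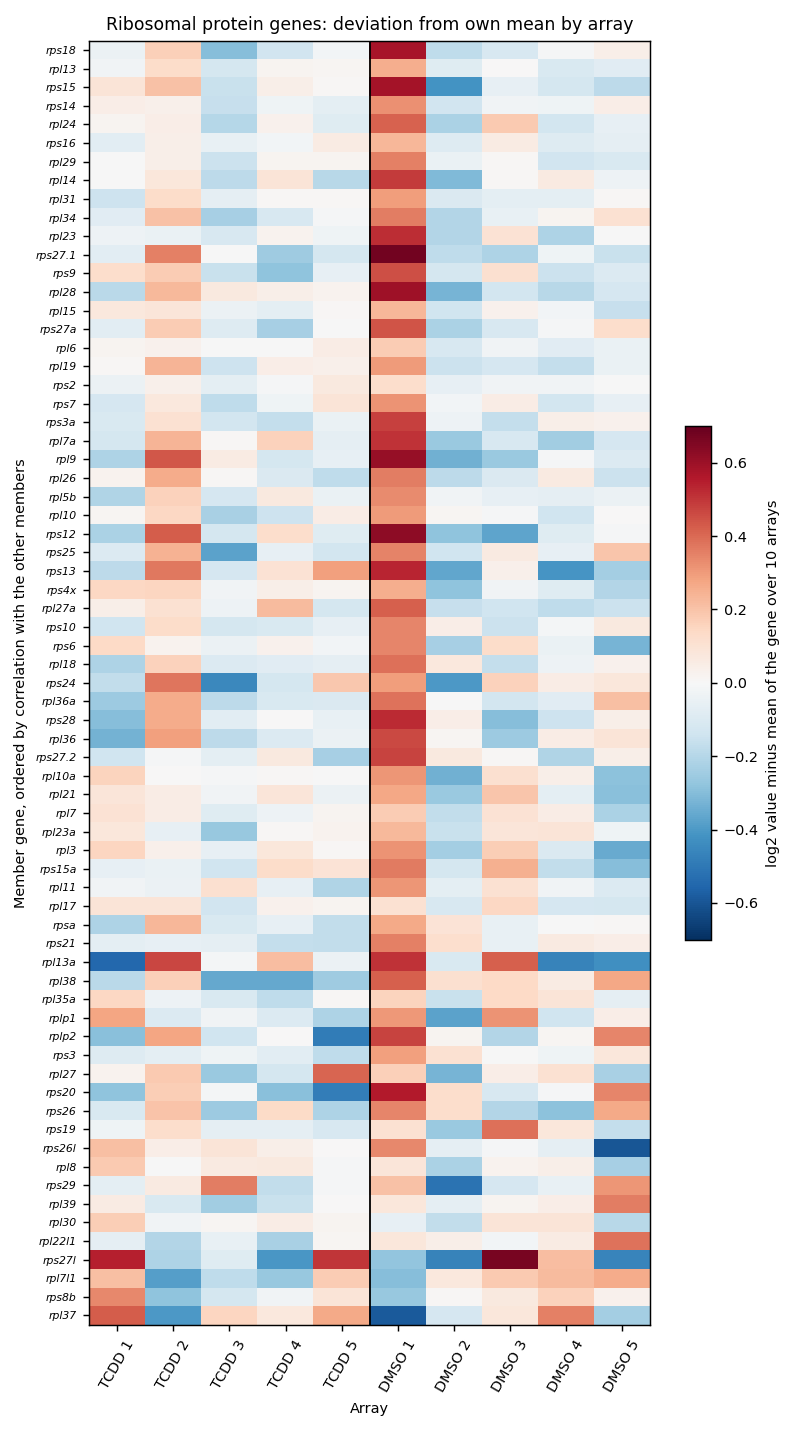
Deviation of each ribosomal protein gene (rows) from its own mean in each array (columns, TCDD left and DMSO right of the line), red above and blue below, log2 scale. Rows run from the gene most correlated with the other members (rps18, 0.94) to the least (rpl37, -0.68), and the DMSO 1 column is red in 64 of the 69 rows; the 5 exceptions are all among the 6 lowest rows.

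A few members departed from the shared profile. The 8 lowest correlations with the other members were those of rpl37 (-0.68), rps8b (-0.56), rpl7l1 (-0.52), rps27l (-0.10), rpl22l1 (-0.050), rpl30 (-0.0050), rpl39 (0.17) and rps29 (0.33), and the next gene, rpl8, was at 0.33 as well. Of the 6 members below 0, rpl7l1, rpl22l1 and rps27l are paralogues named after another ribosomal protein gene, and rps8b is a gene copy. This was not particular to them, since rps27.1, rpl5b, rps27.2 and rps26l, also copies or paralogues, were at 0.87, 0.81, 0.69 and 0.45. Outside DMSO 1 the order changed: 9 members were below 0 in the remaining 9 arrays, and 4 of the 6 were among them. Without both DMSO 1 and TCDD 2, rpl37, rps8b, rpl7l1, rps27l and rpl30 were at 0.31, 0.46, 0.33, 0.60 and 0.56. rpl22l1 was then at -0.099, and 21 members were below 0. The departures thus depended on these arrays.

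rpl37, a large-subunit protein, was at 8.86, 8.03, 8.58, 8.51 and 8.69 in TCDD 1 to 5, against 7.85, 8.31, 8.51, 8.78 and 8.19 in DMSO 1 to 5. It was lowest in DMSO 1 and TCDD 2, the arrays in which most members were highest. The second probe of the gene, with a similar mean of 8.22, stayed between 8.17 and 8.42 in TCDD arrays and 8.01 and 8.30 in DMSO arrays, and correlated with the first at 0.12 and with the other members at 0.12. The departure of rpl37 was thus seen on 1 of its 2 probes, for which the annotation gave a symbol but no gene identifier.

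rpl7l1, a paralogue of rpl7 that acts in assembly of the large subunit in human cells, was at 9.33, 8.73, 8.94, 8.85 and 9.29 in TCDD 1 to 5, against 8.82, 9.19, 9.30, 9.34 and 9.37 in DMSO 1 to 5. rps8b was at 8.457, 7.839, 7.999, 8.093 and 8.213 in TCDD 1 to 5, against 7.853, 8.126, 8.190, 8.279 and 8.152 in DMSO 1 to 5. Both genes were low in TCDD 2 and DMSO 1, and their groups overlapped, with differences of -0.17 (95% CI -0.53 to 0.18) and 5.4e-05 (95% CI -0.30 to 0.30). rpl22l1, the paralogue of rpl22, was at 7.73, 7.59, 7.74, 7.57 and 7.81 in TCDD 1 to 5, against 7.87, 7.84, 7.78, 7.85 and 8.18 in DMSO 1 to 5. Its difference was -0.21 (95% CI -0.46 to 0.03), and TCDD 5 lay above DMSO 3. rpl39, a small protein lining the exit tunnel, differed by -0.18 (95% CI -0.43 to 0.07) and was highest in DMSO 5 as well, at 8.98. rpl30 differed by 0.096 and rps29 by 0.068, with intervals that included 0.

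Genes of the rps27 family did not share one array profile on the probes used. rps27.1 lay 0.75 above the other 9 arrays in DMSO 1, and rps27.2 lay 0.52 above, whereas rps27l lay 0.30 below. The correlation of rps27.1 with rps27.2 was 0.62 over 10 arrays but -0.17 without DMSO 1. With rps27l, rps27.1 correlated at -0.22 and rps27.2 at -0.55, or at -0.077 and -0.68 without DMSO 1. Pairs of members averaged 0.40 over 10 arrays and 0.17 without DMSO 1. rps27l, whose human counterpart is induced by p53, had the largest spread of all members and was at 9.80, 9.04, 9.17, 8.85 and 9.76 in TCDD 1 to 5, against 8.98, 8.79, 9.92, 9.47 and 8.79 in DMSO 1 to 5. Each group held both high and low arrays, and the second rps27l probe followed the first (correlation 0.92 over 10 arrays). The differences were -0.039 for rps27.1, -0.15 for rps27.2 and 0.13 for rps27l (95% CI -0.46 to 0.72). Their dimmer second probes differed by -0.088, 0.12 and 0.078, so the sign for rps27.2 depended on the probe. rps26 and rps26l, chosen after their values were seen, also parted: in DMSO 5 rps26 was at 12.22, near its highest, and rps26l at 11.34, its lowest. The dimmer second rps26 probe was at 7.31 in DMSO 5, near its lowest value of 6.95, and correlated with the first at -0.33. This parting was thus seen on 1 of the 2 rps26 probes. Closely related copies can share probe sequence, so their separate values are uncertain.

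rps13 and rps20 completed the members with the largest spread. rps13, a small-subunit protein, was at 8.97, 9.52, 9.03, 9.25 and 9.43 in TCDD 1 to 5, against 9.68, 8.78, 9.19, 8.74 and 8.91 in DMSO 1 to 5. Its highest value was in DMSO 1, and the other 4 DMSO arrays were at 9.19 or lower. The difference was 0.18 (95% CI -0.25 to 0.61), and without DMSO 1 it was 0.34. Without DMSO 1 the unadjusted limma p of rps13 was 0.0494 and its adjusted p was 0.716.

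The 32 members not named by a rule had differences of -0.16 to 0.16, with 13 above 0 and 19 below. Their correlations with the other members ran from 0.33 to 0.90, and 29 of the 32 were highest in DMSO 1. Of the 16 members with more than 1 probe, 12 had differences of the same sign on all probes, and rpl11, rpl23, rps26 and rps27.2 did not. The second probes correlated with the first at a median of 0.74 (from -0.33 for rps26 to 0.96 for rps4x).

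Other genes of translation were followed through lists for mitochondrial ribosomal proteins, initiation factors, elongation factors with other TOP genes, ribosome biogenesis and regulators of ribosomal protein synthesis. No gene of these lists passed the adjusted threshold. Of 67 mitochondrial ribosomal protein genes, 23 were above 0 and 44 below, with a median of -0.037 and unadjusted p under 0.05 in 1 above and 3 below. The smallest p in this list belonged to mrps33 at -0.56 (95% CI -0.90 to -0.21), mrpl16 at -0.32 and mrpl53 at -0.64. Means in TCDD and DMSO were 6.55 and 7.11 for mrps33 and 6.35 and 6.99 for mrpl53. These levels were near the array medians of 6.71 to 6.87, whereas mrpl16 was at 8.48 and 8.79. Initiation factors had 29 of 59 above 0 and 1 gene with an unadjusted p under 0.05, eif1ad at -0.36 (95% CI -0.67 to -0.06). Its means of 6.61 in TCDD and 6.97 in DMSO were also near the array medians. Ribosome biogenesis genes had 27 of 72 above 0, a median of -0.032 and 1 such gene, rrp9 of the U3 particle, at -0.23 (95% CI -0.45 to -0.01). Elongation and TOP genes had 12 of 21 above 0 and a median of 0.028, and the regulators had 10 of 25 above 0 and a median of -0.012, with 0 genes at that level in either list. The smallest p among the regulators was that of tsc1a, an inhibitor of mTORC1 signalling, at 0.23 (95% CI -0.02 to 0.47). The shares at an unadjusted p under 0.05 were 5.97% for mitochondrial ribosomal proteins, 1.69% for initiation factors and 1.39% for biogenesis, beside 2.48% over all genes.

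The lists differed in their array profiles. In DMSO 1, where the cytosolic proteins averaged 0.30 above their own means, elongation and TOP genes were at 0.14, mitochondrial ribosomal proteins at -0.063, initiation factors at -0.11, biogenesis genes at -0.24 and regulators at 0.083. In TCDD 2, where the cytosolic proteins were at 0.097, the same lists were at 0.015, -0.32, -0.18, -0.31 and -0.030. In DMSO 2, where the cytosolic proteins were lowest at -0.13, the same lists were at -0.099, 0.0030, -0.076, 0.032 and -0.077. Elongation and TOP genes were thus highest in the same array as the cytosolic ribosomal proteins, but other arrays differed. In TCDD 1 and DMSO 3 they were at 0.11 and 0.10, where the cytosolic proteins were at -0.024 and 0.011. Their lowest array was DMSO 5, at -0.16, where the cytosolic proteins were at -0.044. Biogenesis genes were below their means in both DMSO 1 and TCDD 2. Biogenesis genes were highest in TCDD 1 and DMSO 3, at 0.27 each. Within the elongation and TOP list, tpt1, naca, faua and eef2b followed the ribosomal protein mean, with correlations of 0.88, 0.87, 0.86 and 0.81 over 10 arrays. Of these, faua itself encodes a small-subunit ribosomal protein, which the naming of the members leaves out. In the same list pabpc1b and nap1l1 ran against the ribosomal protein mean at -0.83 and -0.69. pabpc1b was at 11.13 in DMSO 1 and at 12.17 or higher in every other array. These genes were picked after their values were seen.

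**Figure D5:**
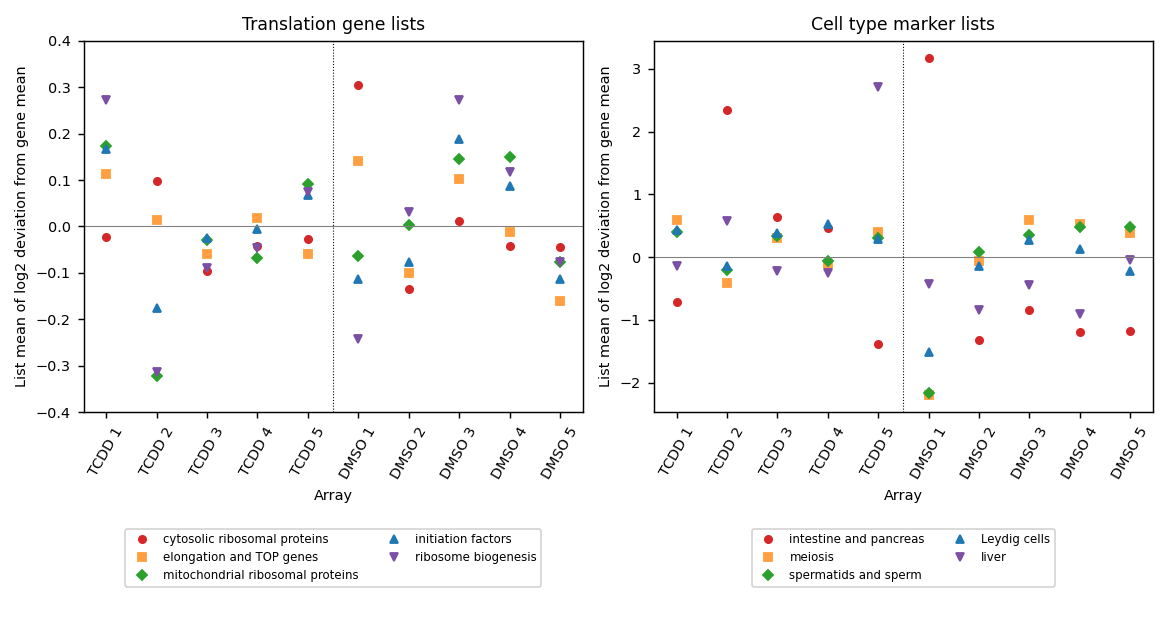
Mean deviation of each gene list from its genes' own means (log2) by array, with TCDD left and DMSO right of the dotted line; translation lists are in the left panel and cell type marker lists in the right panel, on different scales. In DMSO 1 the cytosolic ribosomal proteins are at 0.30 and biogenesis genes at -0.24, while intestine and pancreas markers are at 3.18.

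Outside the members, the 10 named genes with the profile most like the ribosomal protein mean over 10 arrays were rab11a, mat2ab, hook1, vwa11, fes, slc25a16, tmbim4, prodha, fuca1.1 and cpa4, with correlations of 0.96 to 0.97. Without DMSO 1 their correlations were 0.85 to 0.91, but the genes were picked for their correlation over arrays that include these. In DMSO 1 they lay from 0.47 (rab11a) to 3.60 (cpa4) above the mean of the other 9 arrays. The median member lay 0.36 above it. cpa4 is a carboxypeptidase gene of the intestine and pancreas list. No cytosolic translation factor of the lists was among them. Among 19191 genes outside the members, 1098 correlated with the ribosomal protein mean above 0.8 and 1090 below -0.8.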

How the data were processed

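RNA of 10 testis samples was measured on Affymetrix whole-transcript arrays, per the labels' protocols. The authors' deposited expression values, 1.25 to 14.6, were taken to be log2 from this range. How they were background-corrected and normalized, and the log base, was not given in the sources used. All columns were assigned to samples by accession, and 0 were left over. The table held 75212 probes, of which 20806 had 1 gene symbol, 855 several and 53551 none. For the members, 68 of 69 Entrez identifiers matched a current RefSeq entry. No genome or sequence table was given, so positions and sequences were not used here.

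TCDD and DMSO arrays were compared by limma (3.58.1, R 4.3.3) over all 19260 genes, with Benjamini-Hochberg adjustment over all of them and calls at an adjusted p under 0.05. The p-values set each difference against the spread between samples within the groups, which may be technical in part, and the number of arrays limits precision. Differences are TCDD minus DMSO. Correlations are descriptions without p. The members and gene lists were chosen with earlier results of these data known. Named with values were members with an interval off 0 or groups apart, the 8 lowest and 5 highest correlations, the 5 largest and 5 smallest SDs, a set of well-known members, up to 3 genes per companion list and 10 genes outside the members. Alternatives were a replicate block, robust estimation with a trend in the variance, weights per array, quantile normalization or median centring of the table, removal of dim probes, averaging the probes of a gene and leaving out each array. Leaving out DMSO 1 and TCDD 2 together was chosen after seeing the data.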

Additional observations from a re-analysis of the deposited data

Results flagged for a closer look

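In 12 of 108 groups checked, 1 array lay far from the other 4 relative to the range of its group. Chance gives this state in about 1 of 20 groups that are independent and unselected. The groups here share arrays, and some genes were chosen for their spread or correlation, so the count cannot be set against that rate. Among ribosomal protein genes, DMSO 1 was far above the other DMSO arrays for rps27.1 (10.41, next 9.71), rpl5b (11.48, next 11.13), rps18 (9.21, next 8.67) and rps2 (13.30, next 13.17). rpl10a was high in TCDD 1 (10.54, next 10.40), and rpl22l1 was high in DMSO 5 (8.18, next 7.87). Among the marker lists, DMSO 1 was far below the other DMSO arrays for meiosis (7.98, next 10.12), spermatids and sperm (7.31, next 9.56) and Leydig cells (7.87, next 9.16), and far above them for intestine and pancreas (12.20, next 8.18). The liver average was high in TCDD 5 (10.64, next 8.50), and the muscle average was high in TCDD 1 (7.06, next 6.85).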

How the results depend on the processing

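No ribosomal protein gene passed the adjusted threshold under any of the 18 alternatives, replicate block included (0 members in each). The count of members at an unadjusted limma p under 0.05 was 1 with the replicate block and 2 with array weights. It was 2 without both DMSO 1 and TCDD 2, and 1 to 3 when single arrays were left out. The members beside rpl38 were rps20, rps21 or rps13. The shares of all genes at that level were 7.27% with array weights and 6.18% without both arrays, against 2.48% in the main comparison. Leaving out DMSO 3 gave 3 members, beside 3.41% of all genes. Leaving out DMSO 1, TCDD 2 or DMSO 4 gave 2 members each, beside 6.65%, 3.1% and 3.02% of all genes. Every other setting gave 1 member. The median difference over members, -0.057, was -0.016 with median centring (34 members above 0) and -0.0255 with the mean of all probes, and it turned to 0.0026 with array weights, to 0.0095 without both arrays and to 0.026 without DMSO 1; over single arrays left out it ran from -0.075 to 0.026. Same-numbered samples had correlations of -0.58 to 0.29 between their deviations, and 1 of 10 arrays correlated best with its own number, so the numbers were not taken as pairs. Over all genes the count at an unadjusted p under 0.05 was 1400 with array weights, 255 of 15688 after removal of dim probes, 1280 without DMSO 1, 289 without DMSO 2 and 1190 without both arrays, against 478, and 1 gene that is no member passed the adjusted threshold without TCDD 2 and 1 without both arrays. The mean deviation of TCDD 1 was -0.098 after quantile normalization, against -0.024, and that of TCDD 4 was 0.0068, against -0.043. With median centring it was 0.20 in DMSO 1, against 0.30, and -0.22 in DMSO 2, against -0.13, and it turned to 0.020 in TCDD 1, 0.025 in TCDD 5 and 0.018 in DMSO 4, while DMSO 1 remained highest and DMSO 2 lowest. The count of members with a correlation below 0 was 21 without both arrays, against 6. Differences near 0 changed sign for rps16 (0.034 with array weights, 0.023 with median centring), rps2 (0.012 with array weights, 0.040 with quantile normalization, 0.037 with median centring), rps27.1 (0.060 and 0.0023 with array weights and median centring) and rps8b (-0.067 with array weights, -0.016 with quantile normalization), and without both arrays for rplp1 (0.025), rps16 (0.024), rps2 (0.016) and rps27.1 (0.031). The cause was not tested. When single arrays were left out, 18 of 37 named members kept their sign, among them rpl38 (-0.49 to -0.34), and 19 did not: rpl10 -0.11 to 0.00012, rpl10a -0.013 to 0.15, rpl13 -0.026 to 0.0697, rpl13a -0.082 to 0.17, rpl15 -0.016 to 0.082, rpl24 -0.14 to 0.017, rpl5b -0.10 to 0.018, rplp1 -0.16 to 0.012, rps14 -0.11 to 0.00103, rps15 -0.017 to 0.23, rps16 -0.043 to 0.037, rps18 -0.19 to 0.00023, rps19 -0.13 to 0.031, rps2 -0.021 to 0.026, rps27.1 -0.13 to 0.12, rps27a -0.16 to 0.0092, rps29 -0.052 to 0.15, rps6 -0.023 to 0.14, rps8b -0.084 to 0.0704.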
